A study of Mus musculus with 2 samples.

Results

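The regions described here are the highest peaks that only the odd-numbered probes retrieved in a ChIRP-seq experiment on *Gm19619*, a long non-coding RNA of mouse liver. They are the odd peaks on chromosomes 1 to 19 with a pileup of at least 30 that share no base with a peak of the even-numbered probes. Pileup is the number of extended reads stacked at the summit, the highest point of a peak. The rule was met by 682 of the 14261 odd peaks, and of the 13653 on these chromosomes. The peaks were thus chosen by 2 measured values, their height in the odd list and their absence from the even list, so both are given as descriptions and nothing is tested on them.

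Primary hepatocytes of 4 female wild-type C57BL/6 mice, 8 weeks old, were combined, fixed for 10 min with 3% formaldehyde, and the chromatin was shared out between odd probes and even probes, 7 of each. No library from cells without the RNA was analysed here. Each set gave 1 library, so there are no replicates, and the intervals below cover counting error between peaks of these libraries only. After removal of duplicates 6972538 reads remained in the odd library and 7052802 in the even library. The libraries hold genomic DNA, so the hepatocyte label could not be checked against expressed markers.

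In ChIRP, short biotinylated DNA probes antisense to an RNA pull it out of cross-linked chromatin together with the DNA around it. Alternate probes along the RNA form separate sets that share no sequence, because a DNA probe can also pair with genomic DNA that resembles its target. Chromatin held through the RNA is looked for with both sets, while DNA held through a probe itself is found with the set that contains the probe. The sequence under a peak of a single set can therefore be read against the probes of that set and of the other.

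The odd probes are numbered 1, 3, 5, 7, 9, 11 and 13. *Gm19619* (ENSMUSG00000107198.1, a lincRNA gene) is transcribed from the minus strand (chr5:91257571-91283421 in GRCm38), and 6 odd probes match the opposite strand of its DNA over their whole length. These sites are printed first because the matches of these 6 probes below are stretches of them. Probe 5 as read from the probe table matches the gene over part of its length only, so its letters may be misread and its counts are uncertain. They are given on the plus strand, the strand that reads as the probe does, with all letters in capitals.
Probe 1 site, chr5:91283023-91283042: AAGGAGAGTGAAGTGGCAGT
Probe 3 site, chr5:91273978-91273997: TGTGCCATGTGAAAGCAGAG
Probe 7 site, chr5:91258494-91258513: GGGAACTGAGCTGTGAGATG
Probe 9 site, chr5:91258311-91258330: CTATGGGTTCTGGACAGCTC
Probe 11 site, chr5:91258104-91258123: TATCTTTGAGCTTCGAGACC
Probe 13 site, chr5:91257895-91257914: CAGATGATACGATGTCCCAA

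A run is a stretch of consecutive bases that a peak shares with a probe on either strand. The next sequences are members among those with the longest runs of probes 1, 3, 5, 7 and 9, together with *Prkar2a*, which is shown because the study names it. Others with runs as long are not printed, among them a member in *Rit2* with 16 bases of probe 7. A member in *Gm19583* on chromosome 5, with 15 bases of probe 3, is not printed either. Each printed sequence is given with 12 bases on either side of the run and in the direction in which it reads as the probe. Capitals mark the run. They show how much of a probe the best matching members held. All those printed but the first lie on other chromosomes than the *Gm19619* gene, while the member in *Gm19583* lies on the same one.
*Gm19619* exon 1, probe 1, chr5:91283011-91283054, plus strand: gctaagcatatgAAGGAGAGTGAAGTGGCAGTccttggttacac
near *Gm23389*, probe 1, chr1:94599939-94599980, minus strand: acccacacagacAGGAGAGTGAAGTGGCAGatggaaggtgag
*Dusp10*, probe 1, chr1:184061054-184061094, plus strand: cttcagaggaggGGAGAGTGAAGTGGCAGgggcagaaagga
*Cmpk1*, probe 3, chr4:114982724-114982762, plus strand: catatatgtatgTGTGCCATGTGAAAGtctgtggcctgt
*Gm39348*, probe 5, chr9:61051999-61052037, plus strand: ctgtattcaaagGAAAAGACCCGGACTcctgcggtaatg
near *Gm17332*, probe 7, chr11:31158863-31158903, plus strand: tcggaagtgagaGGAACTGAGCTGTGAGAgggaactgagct
*Prkar2a*, probe 7, chr9:108691036-108691074, minus strand: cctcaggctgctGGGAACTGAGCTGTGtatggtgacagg
*Smoc1*, probe 9, chr12:81167436-81167475, plus strand: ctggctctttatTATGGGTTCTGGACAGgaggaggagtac
*C7*, probe 9, chr15:5061994-5062033, plus strand: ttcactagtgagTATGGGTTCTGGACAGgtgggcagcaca

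Some of the highest members looked different. In 7 of the 15 highest, short stretches of a single probe were repeated side by side, and 100 bases of 6 such peaks are shown with every run of at least 9 bases in capitals.
*Rapgef5*, probe 1, chr12:117588465-117588564, minus strand: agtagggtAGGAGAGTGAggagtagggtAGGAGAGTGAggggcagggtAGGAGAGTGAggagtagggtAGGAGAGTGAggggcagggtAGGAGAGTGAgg
*Cpm*, probe 1, chr10:117637037-117637136, minus strand: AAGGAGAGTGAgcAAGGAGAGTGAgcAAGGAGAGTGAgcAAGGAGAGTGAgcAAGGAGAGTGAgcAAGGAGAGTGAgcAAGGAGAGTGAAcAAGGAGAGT
*Rps6kc1*, probe 7, chr1:190902774-190902873, minus strand: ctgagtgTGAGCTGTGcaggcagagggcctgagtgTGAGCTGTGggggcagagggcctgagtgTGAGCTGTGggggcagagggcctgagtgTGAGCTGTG
*Tet3*, probe 3, chr6:83401383-83401482, plus strand: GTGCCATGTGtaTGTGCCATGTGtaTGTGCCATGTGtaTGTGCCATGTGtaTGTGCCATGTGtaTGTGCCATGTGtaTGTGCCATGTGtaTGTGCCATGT
*Npl*, probe 7, chr1:153532488-153532587, minus strand: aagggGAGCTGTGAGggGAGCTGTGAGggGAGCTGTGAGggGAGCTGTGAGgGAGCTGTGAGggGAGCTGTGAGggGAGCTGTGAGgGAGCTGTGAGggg
near *Gm6651*, probe 3, chr1:106470142-106470241, minus strand: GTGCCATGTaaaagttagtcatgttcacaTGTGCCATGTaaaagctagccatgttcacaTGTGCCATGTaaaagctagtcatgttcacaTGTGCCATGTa

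The pileup of the 682 peaks ranged from 30 to 269 with a median of 36, and the authors' fold enrichment from 20.4 to 178 with a median of 24.4. Many members were close to the limit, since 313 had a pileup of 30 to 34 and 38 had 60 or more. Just inside the limit, 77 odd-only peaks had a pileup of exactly 30, with a median length of 515 bp, and 41 of them held a run of at least 12 bases of an odd probe. Just outside it, 83 had a pileup of 29, with a median length of 555 bp, and 46 held such a run. The peaks on either side of the limit thus looked alike in length and in probe match. Members were 261 to 1578 bp long with a median of 636 bp, against 267 bp for the 12428 odd-only peaks below the limit, and length comes from the same signal as height.

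**Figure D1:**
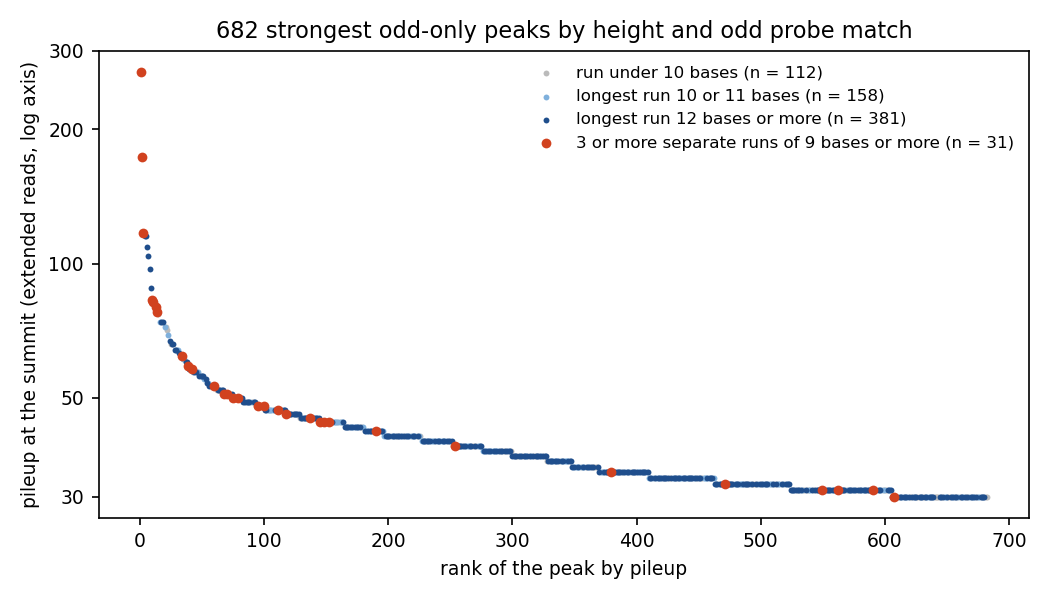
Pileup at the summit in extended reads (log axis) of the 682 strongest odd-only peaks, in order of height, coloured by their match to the odd probes. The 31 peaks with repeated short runs (red) include the 3 highest, at 269, 173 and 117, while the 112 peaks with no run of 10 bases and no repeats (grey) reach at most 77.

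The highest member lay in an intron of *Rapgef5*, which encodes an exchange factor for Rap GTPases (chr12:117588103-117589653). Its pileup was 269, and its longest run was no more than 10 bases of probe 1. Counted without overlap, the peak held 18 runs of at least 9 bases of that probe and none of an even probe. The second, in an intron of the carboxypeptidase gene *Cpm* (chr10:117636302-117637792), had a pileup of 173 and 45 such runs of probe 1, the longest of 12 bases. The third, in *Rps6kc1*, had a pileup of 117 and 20 runs of probe 7 with a longest run of 9 bases. The peaks in *Rapgef5*, *Cpm* and *Rps6kc1* were therefore rich in copies of short runs. Those in *Rapgef5* and *Rps6kc1* held no run of 12 bases, while in *Cpm* a run of 12 bases occurred 7 times. Of the 15 highest members, 7 held at least 3 runs of 9 or more bases and 9 held a run of at least 12 bases, with some in both groups.

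Ranks 4 to 9 held 1 or 2 runs each. A peak upstream of the antisense gene *1700109K24Rik* had a pileup of 115 and 12 bases of probe 1. An intronic peak of *Cadps2*, a gene of dense-core vesicle release, also had 115 and held 13 bases of the 3′ part of probe 1. In an intron of *Ston2*, which encodes an endocytic adaptor, the pileup was 109 and the run 13 bases of probe 3. The peak over exon 1 of *Gm19619* itself ranked 7th with a pileup of 104 and was the 1 member with a complete probe, the 20 bases of probe 1. This peak at the site of probe 1 was thus below 6 other regions that held 13 bases of a probe at most. An even peak lay within 10000 bp of it. Any peak of the gene that both sets retrieved is left out by the rule, so the rank is not that of the gene as a whole. Near *Fam107a* the pileup was 97 with 12 bases of probe 1, and in an intron of *Dusp10*, a MAP kinase phosphatase gene, it was 88 with 17 bases of probe 1.

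Among ranks 10 to 15, repeated runs returned. *Tet3*, which encodes an enzyme that oxidises methylated cytosine, had a pileup of 83 with 21 runs of probe 3, and *Npl*, a gene of sialic acid breakdown, had 82 with 10 runs of probe 7. The peak at the start of *Ncoa3*, a nuclear receptor coactivator gene, had 81 and a single run of 12 bases of probe 7, with its summit 2 bp upstream of the annotated start. *Bcl2l15*, a gene of the Bcl2 family, had 80 with 4 runs of probe 7. Near the pseudogene *Gm6651* the pileup was 78 with 29 runs of probe 3. The 15th peak, at the start of the circadian repressor gene *Cipc*, had 77 and no run above 8 bases.

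Repeated runs were counted after the sequences of the highest peaks had been seen. At least 3 separate runs of 9 or more bases of 1 odd probe were present in 31 of the 682 members (4.55%, 95% Wilson interval 3.22 to 6.38). In the lower odd-only peaks the share was 0.877% (0.728 to 1.06), so the difference was 3.67 percentage points (Newcombe interval 2.33 to 5.51). Of 122 peaks with a pileup of at least 30 that both sets retrieved, 10 had such repeats (8.20%, 4.51 to 14.4). The members differed from these by -3.65 points with an interval that included 0 (-10.0 to 0.464), so repeats were not particular to the members. The same count with the even probes gave 1 member (0.147%), and regions of the same length 10000 bp to the right of the members also gave 1. Regions retrieved by the even set had been left out, so the count with the even probes is set in part by the rule. Members with repeated runs had a median pileup of 48, with 8 of the 38 members of pileup 60 or more (21.1%) but 6 of the 313 members of pileup 30 to 34 (1.92%) among them. Of these 31 members, 18 had no run of 12 bases anywhere. In 13 members at least 10 runs were counted. Those not yet named included *Map3k2*, a MAP kinase cascade gene, with 34 runs of probe 7 and a pileup of 46, and *Txnrd1*, the cytosolic thioredoxin reductase gene, with 11 runs of probe 3 and a pileup of 44.

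Single runs were then counted over all members. In the 200 bp centred on the summit, 329 of 682 members held at least 12 consecutive bases of an odd probe (48.2%, 44.5 to 52.0). Over all 13110 odd-only peaks on these chromosomes the share was 22.4%, and over those below the limit it was 20.97% (20.3 to 21.7). Members exceeded the lower peaks by 27.3 percentage points (23.5 to 31.1). No member held a run of this length from an even probe, and 0 of 682 allows a share of up to 0.440% (3 counts, as for every 0 below). Regions that share a base with an even peak had been left out, so this 0 is set in part by the rule. Of 122 peaks with a pileup of at least 30 that both sets retrieved, 2 held such an even run (1.64%). In windows 10000 bp to the right of the summits an odd run was found for 3 members (0.440%, 0.150 to 1.29), a difference of 47.8 points (44.0 to 51.6). Sequence of the odd set was thus a feature of the summits and was rare beside them.

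**Figure D2:**
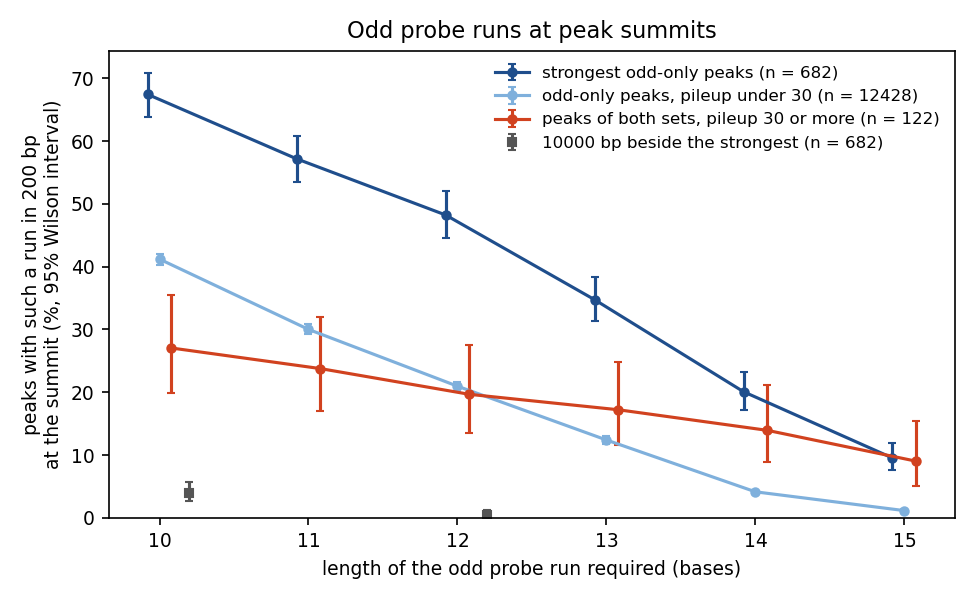
Share of peaks with a run of at least 10 to 15 bases of an odd probe in 200 bp at the summit, with 95% Wilson intervals, for the 682 strongest odd-only peaks, the 12428 lower odd-only peaks, 122 peaks of both sets with a pileup of at least 30, and windows 10000 bp beside the strongest. At 12 bases the shares are 48.2%, 20.97%, 19.7% and 0.440%.

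The difference was present at every run length counted. For at least 10 bases the share of members was 67.4% against 41.2% in the lower peaks, and for at least 14 bases it was 20.1% against 4.14%. Peaks with a pileup of at least 30 that the even set also retrieved were a further comparison. They were higher than the members, with a median pileup of 50 (quartiles 38 and 83.8) against 36. Of 122 such peaks on these chromosomes, 24 held at least 12 bases of an odd probe (19.7%, 13.6 to 27.6), which was 28.6 points below the members (19.8 to 35.7). At 14 bases the members and these peaks differed by 6.15 points with an interval that included 0 (-1.63 to 12.1). Peaks above the limit that both sets retrieved thus held 12 odd probe bases less often, and the difference in height between the groups was not adjusted for.

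When the whole peak was searched, 394 members held at least 12 bases of an odd probe (57.8%, 54.0 to 61.4) and 2 held as many of an even probe. The rule limits the even count here too. The share was 29.1% over all odd-only peaks, 27.5% over the lower ones and 24.6% over the 122 peaks of both sets. Members were longer than the lower peaks, which gives a whole peak more room for a run. The longest run was 12 bases in 118 members, 13 in 121, 14 in 83 and 15 in 58. Only 14 members had 16 or more. Among members the length of the longest run went with no clear change in height. The median pileup was 36 at 12 bases, 34 at 13 bases, 37 at 14 and at 15 bases, and 32.5 at 16 bases.

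The 394 members divided unequally among the probes. Probe 7 was matched by 162 (41.1%) and probe 1 by 147 (37.3%). Probe 9 was matched by 39, probe 3 by 37, probe 5 by 8 and probe 13 by 1, and no member matched probe 11. The 1 match of probe 13 lay in the 3′ UTR of *Rora*, which encodes a nuclear receptor, with 15 bases and a pileup of 32. Among the 3415 lower odd-only peaks with a run, probe 1 made up 26.3%, probe 7 39.1%, probe 9 15.96% and probe 3 12.4%. Probe 1 thus took a larger part of the matched peaks among the members, by 10.98 points (6.12 to 16.1), and probe 9 a smaller one, by -6.06 points (-8.93 to -2.51). For probe 7 the difference was 2.02 points with an interval that included 0 (-3.00 to 7.21). Members of probe 1 had a median pileup of 38, against 34 for those of probe 7 and probe 9 and 33 for those of probe 3.

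Within a probe, some stretches recurred. Among the 144 members with a single longest run of probe 1, bases 9 to 12 of the probe were included in all 144, base 1 in 21 and base 20 in 8. Among the 157 of probe 7, bases 9 to 12 were included in all 157, base 1 in 52 and base 20 in 7. A run of 12 bases in a probe of this length must include its central bases, so the ends carry the information here. Matches of probe 7 reached its 5′ end more often than its 3′ end.

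The whole genome outside the *Gm19619* gene was then searched for runs of the odd probes, to ask which of the existing sites lay in one of the strongest peaks. Of 15537 sites on chromosomes 1 to 19 with a longest run of 12 bases, 169 lay in a member (1.09%, 0.936 to 1.26). The share was 3.26% of 3831 sites with 13 bases, 11.3% of 732 sites with 14 bases and 30.5% of 190 sites with 15 bases (24.4 to 37.4). Of 55 sites with 16 or more bases, 13 lay in a member (23.6%, 14.4 to 36.3) and 51 in an odd-only peak of any height. Longer runs were thus more often under a strong peak up to 15 bases, and beyond that the intervals overlapped. Of 904 sites with at least 14 bases of an even probe, none lay in an odd-only peak (0 allows up to 0.332%). A site under an even peak cannot lie in an odd-only peak, so this 0 is set in part by the rule and gives no background rate.

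**Figure D3:**
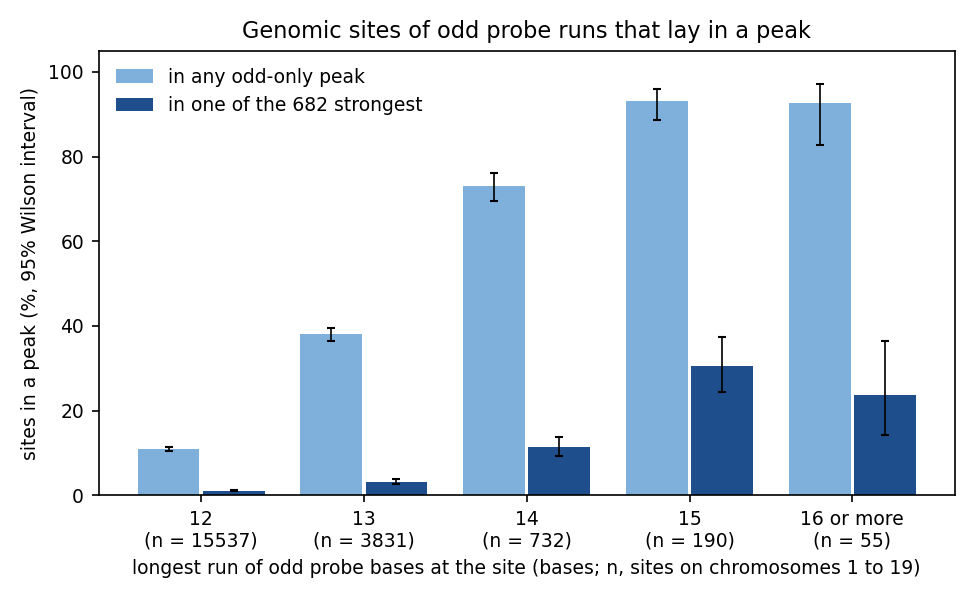
Share of genomic sites outside the *Gm19619* gene with an odd probe run that lay in an odd-only peak of any height (light) or in one of the 682 strongest (dark), by the length of the run, with 95% Wilson intervals and the number of sites under each pair of bars. In the strongest peaks the share goes from 1.09% at 12 bases to 30.5% at 15 bases.

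The shares were then taken by probe. With runs of 14 or more bases pooled, 66 of 222 sites of probe 1 lay in a member (29.7%, 24.1 to 36.0). The shares were 14.98% of 287 sites for probe 7 (11.3 to 19.6), 13.9% of 158 for probe 9 (9.38 to 20.2) and 7.62% of 223 for probe 3 (4.81 to 11.9). For probe 5 they were 5 of 18 sites. Probe 11 had 52 sites and none in a member (0 allows up to 5.77%), although 23 of them lay in lower odd-only peaks. At exactly 14 bases the share was 22.6% of 146 sites for probe 1 (16.6 to 30.04), 13.5% of 222 for probe 7 (9.63 to 18.6), 7.14% of 126 for probe 9 (3.80 to 13.02) and 4.17% of 168 for probe 3 (2.03 to 8.35). At this length the interval of probe 1 lay above those of probes 3 and 9 and overlapped that of probe 7. At exactly 13 bases probe 7 had 6.11% of 982 sites (4.78 to 7.79) and probe 1 4.82% of 767 (3.52 to 6.58), with intervals that overlapped.

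Shares also differed between stretches of a probe. For probe 1 with runs of exactly 14 bases, 17 of 25 sites that matched bases 3 to 16 lay in a member (68.0%, 48.4 to 82.8), and 8 of 23 sites that matched bases 2 to 15. Of 35 sites that matched bases 1 to 14, and of 23 that matched bases 7 to 20, none lay in a member (0 allows up to 8.57% and 13%). For probe 7 with runs of 13 bases, 32 of 180 sites that matched bases 1 to 13 lay in a member (17.8%, 12.9 to 24.0), against 0 of 59 that matched bases 7 to 19 (0 allows up to 5.08%). Base composition was counted over the sites of all odd probes. Among sites of 13 bases, 41 of 335 with at least 8 G or C lay in a member (12.2%, 9.15 to 16.2), 58 of 1537 with 7 (3.77%), 26 of 1449 with 6 (1.79%) and 0 of 510 with 5 or fewer (0 allows up to 0.588%). Among sites of 12 bases, the share was 2.59% of 3475 with 7 G or C, 0.748% of 8427 with 6 and 0.451% of 3545 with 5 or fewer. Of the 90 such sites with at least 8 G or C, 0 lay in a member (0 allows up to 3.33%). The share at this last composition was thus below that at 13 bases. The part of composition in the differences between stretches and between probes was not tested. These stretches were compared after earlier results were known, and no test was made of them.

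Summits lay close to the runs but not centred on them. In the 394 members the distance from the summit to the nearest base of the longest run had a median of 51.5 bp and a highest value of 908 bp. It was at most 100 bp in 352 members and over 200 bp in 4, and in 42 the summit was inside the run. To see whether the side was arbitrary, the position of the summit was read along the probe, from its 5′ to its 3′ end, in the 386 members with a single longest run. The summit was on the 5′ side of the centre of the run in 338 (87.6%, 83.9 to 90.5), with a median offset of -56.3 bp. Read along the chromosome it was to the left in 201 (52.1%, 47.1 to 57.0). The side therefore followed the direction of the probe and not that of the chromosome.

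**Figure D4:**
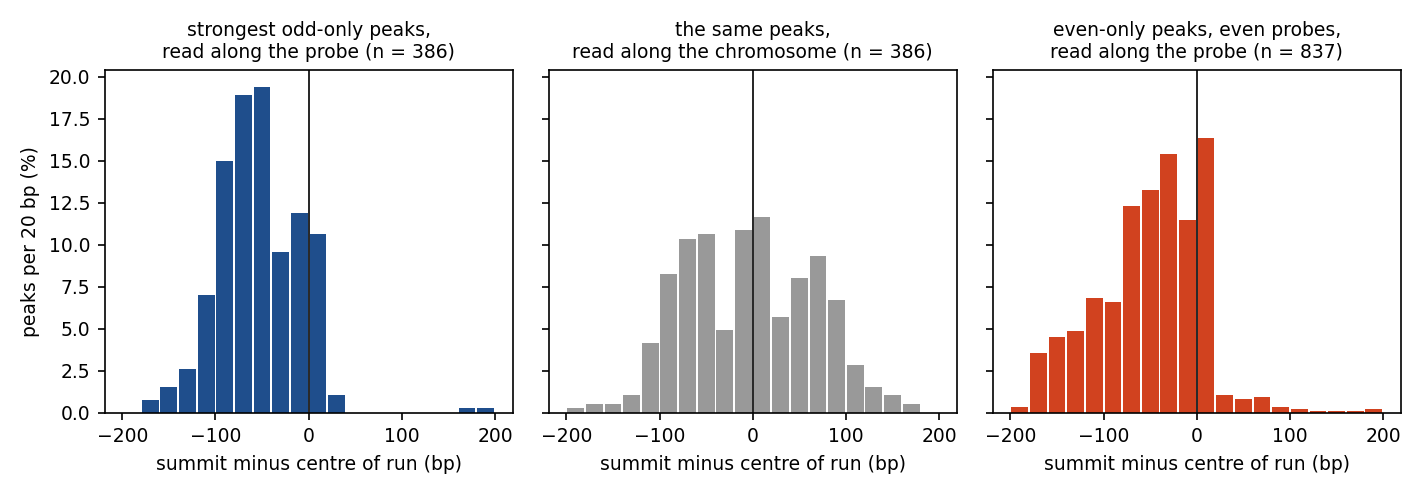
Position of the summit relative to the centre of the longest probe run, in bins of 20 bp, as a percentage of peaks. Left, 386 of the strongest odd-only peaks read from the 5′ to the 3′ end of the probe, where 87.6% are left of 0; middle, the same peaks read along the chromosome; right, 837 even-only peaks and the even probes, where 79.3% are left of 0 (4 peaks in the first and second panels and 3 in the last lie beyond 200 bp and are not drawn).

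This offset was measured after a first look at the values, so it was also measured outside the members. In the 3397 lower odd-only peaks with a single run, 84.7% of summits were on the 5′ side (83.4 to 85.8). In the even library, which shares no probe with the odd set, 664 of 837 even-only peaks with a run of an even probe had the summit on the 5′ side (79.3%, 76.5 to 81.9), with a median offset of -43.5 bp. In the members the share was 85.5% without those of probe 1, 88.2% without those of probe 7 and 87.4% without chromosome 5. It was 87.7% where the probe read along the plus strand and 87.4% where it read along the minus strand. The runs themselves had no preferred strand, with 203 single runs on the plus and 183 on the minus strand. In members within genes the probe read in the direction of the gene in 122 and against it in 115.

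Not every strong peak had a recognisable match. In 112 members (16.4%) the longest odd run was under 10 bases and there were fewer than 3 runs of 9 bases. This was so in 42.7% of all odd-only peaks and in 44.1% of the lower ones (43.3 to 45.0), which are shorter. In the members without a match the median pileup was 34.5 and the highest 77. The highest of them was the peak at *Cipc*, followed by a peak near *Gpr161*, which encodes a receptor of the primary cilium (pileup 74, longest odd run 8 bases), one in a promoter of the scaffold gene *Frmd4b* (72, 8 bases) and one in an intron of the lincRNA gene *4930505K14Rik* (71, 9 bases). The last of these held 11 bases of an even probe. The 118 members without a run of 10 bases had a median G+C of 47.5% in the 200 bp at the summit, against 45.0% in the 394 with a run of 12 or more, and soft-masked shares of 11.8% and 12.3%. Over all members the median G+C was 46.0% and the soft-masked share, the part marked as repeat in the genome, 13%. In the lower odd-only peaks they were 45.5% and 13.5%, while the peaks with a pileup of at least 30 that both sets retrieved were 45.5% soft-masked. Within the members the median G+C was 44.5% at a pileup of 30 to 34, 45.5% at 35 to 39, 47.5% at 40 to 59 and 51.2% at 60 or more. Over all members these medians were thus close to those of the lower odd-only peaks, while the highest bands were richer in G and C.

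By GENCODE annotation, 224 members were distal intergenic (32.8%, 29.4 to 36.5), 216 lay in introns (31.7%, 28.3 to 35.3) and 200 in promoters (29.3%, 26.0 to 32.9), taken as 3000 bp on either side of any transcript start. A further 23 lay in exons, 16 in 3′ UTRs, 2 just downstream of a transcript and 1 in a 5′ UTR. These counts are for peaks that touch the category, and with the summit base alone 7 lay in exons, 10 in 3′ UTRs and 0 in 5′ UTRs. The promoter share over all odd-only peaks was 23.8%. Members exceeded the lower peaks by 5.85 points in promoters (2.48 to 9.46) and differed from them by -4.34 points in distal intergenic sequence (-7.86 to -0.628). With the summit base in place of the whole, longer peak, the promoter difference was 6.05 points (2.69 to 9.63). In introns the difference of -3.04 points had an interval that included 0 (-6.52 to 0.641). Within 5000 bp of a protein-coding gene lay 442 members (64.8%), which was 7.73 points above the lower peaks (3.97 to 11.3).

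The promoter share followed height within the members. It was 21.4% at a pileup of 30 to 34, 23.7% at 35 to 39, 41.3% at 40 to 59 and 44.7% at 60 or more (30.1 to 60.3). Between members of 40 or more and those below, it differed by 19.8 points (12.5 to 27.0), and by 19.5 points when the summit base was assigned (12.3 to 26.6). The 431 members of a pileup under 40 had a share of 22.04%, next to 23.5% in the lower odd-only peaks, and the 251 of at least 40 had 41.8%. These comparisons use the height that chose the peaks and are descriptions. Promoter members had a median G+C of 51% against 44.0% in the others.

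**Figure D5:**
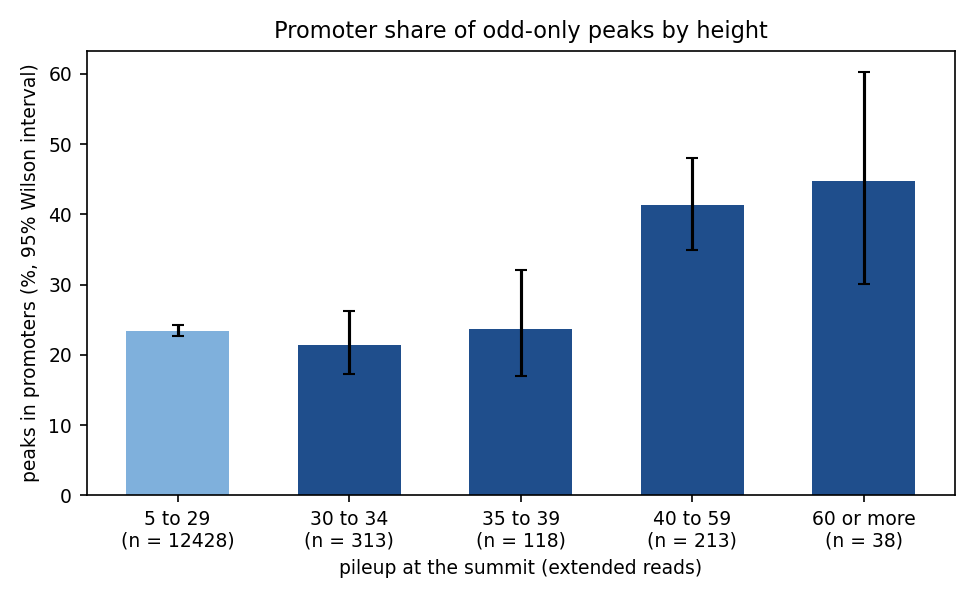
Share of odd-only peaks in promoters by pileup at the summit, with 95% Wilson intervals; the light bar is the 12428 lower peaks and the dark bars are the 682 strongest. The share is 23.5% below the limit, 21.4% and 23.7% in the first bands above it, and 41.3% and 44.7% in the highest bands.

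No clear difference in probe match was seen between promoter peaks and the rest. Of the 394 members with at least 12 bases of an odd probe, 27.7% lay in promoters, and of the 288 with shorter runs 31.6%. The difference of -3.93 points had an interval that included 0 (-10.9 to 2.94), which also allows a lower share. Promoter members were higher than the others (median pileup 40 against 34), and height was not adjusted for. Among genomic sites with 13 probe bases, 36 of 662 in promoters lay in a member (5.44%, 3.95 to 7.44), against 89 of 3169 outside promoters (2.81%), a difference of 2.63 points (1.02 to 4.69). At 12 bases the difference was 0.256 points (-0.151 to 0.775) and at 14 bases 4.52 points (-1.25 to 11.9). Sites of 13 bases were therefore under a strong peak more often in promoters, and for 12 and 14 bases the intervals included 0.

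The highest member in each category was as follows. *Rps6kc1* led the promoters through the start of a transcript inside the gene, since its summit was 8936 bp from the gene's own start. *Rapgef5* led the introns and the peak near *1700109K24Rik* the distal intergenic regions. In exons it was a peak of pileup 52 in *Gm13657*, a processed transcript. In 3′ UTRs it was a peak of 45 in *Ccnl2*, which encodes a cyclin of RNA processing, with 14 bases of probe 1. The 5′ UTR peak was in *Lpin2*, a phosphatidate phosphatase gene of lipid synthesis, with a pileup of 44 and 10 bases of probe 9. Its summit lay outside the UTR. Downstream of a transcript, a peak that began 69 bp past the end of *Aco1*, which encodes cytosolic aconitase, had a pileup of 37 and 15 bases of probe 7.

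Several liver genes had a member, and they were counted in lists chosen with earlier results of these data known. Over all 20807 protein-coding genes on chromosomes 1 to 19, 501 had a member within 5000 bp (2.41%), and 27.4% had an odd-only peak of any height. Long genes have more room for peaks, and gene length was not adjusted for.

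Of 25 autosomal genes of plasma proteins made by hepatocytes, 5 had a member (20%), and 11 had an odd-only peak of any height (44%). A peak of pileup 44 lay over an exon of *Alb*, which encodes serum albumin. It held 10 bases of probe 1 and also a run of 10 bases of an even probe. A peak of 49 lay at the start of *Apoa2*, the gene of an HDL apolipoprotein, with its summit 18 bp upstream of the start and a longest odd run of 8 bases. A peak of 31 lay over an exon of the transthyretin gene *Ttr* with a run of only 7 bases. The other peaks of this list were long matches. The peak 3449 bp from the fibrinogen gene *Fgg* had a pileup of 60 and 14 bases of probe 1, and that at the start of *Ambp*, the gene of a plasma microglobulin, had 34 and 14 bases of probe 7. The list thus held peaks both with and without a long run.

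Of 24 liver transcription factor genes, 1 had a member (4.17%), and 9 had an odd-only peak of any height (37.5%). The gene with a member was *Nr1i3*, which encodes the xenobiotic receptor CAR, and its member was the *Apoa2* peak, 3973 bp from the gene. Of 20 insulin signalling genes, 3 had a member (15%), and 10 had an odd-only peak of any height (50%). The insulin receptor gene *Insr* had an intronic peak of 33 with 14 bases of probe 9. *Pik3ca*, the gene of a catalytic subunit of PI3-kinase, had an intronic peak of 32 with 13 bases of probe 7. *Rptor*, which encodes a subunit of mTORC1, had one of 34 with 12 bases of probe 1. All of these held a run of an odd probe.

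Of 21 genes that the study names, 3 had a member (14.3%), and 11 had an odd-only peak of any height (52.4%). The list was compiled from the study's text, which took some of the genes from these data, so it is not independent of them. Beside *Gm19619*, *Prkar2a*, which encodes a regulatory subunit of protein kinase A, had a peak of 44 with the 15 bases of probe 7 shown above. *G6pc*, the gene of the last enzyme of gluconeogenesis, had a peak of 46 that began 1677 bp past the gene, and its longest odd run was 9 bases. The other 18 genes of this list had no member within 5000 bp. The rule leaves out peaks that both sets retrieved and odd-only peaks below the pileup limit. The study, in contrast, took the genes for its pathway analysis from overlapping peaks. The absence of a member at these 18 genes is thus set in part by the rule, and binding of the RNA there was not tested. The leptin receptor gene *Lepr* was the nearest gene to a member of pileup 40 that ended 19598 bp upstream of it, with a longest odd run of 8 bases.

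Some genes had several members. *Zbtb20*, which encodes a transcriptional repressor of hepatocytes, had 3 intronic peaks with pileups of 44, 41 and 30 and runs of 10, 10 and 12 bases. The oestrogen receptor gene *Esr1* had 2, of 39 and 37, and the forkhead gene *Foxn3* had 2, of 39 and 31. The peaks in *Foxn3* held 14 bases of probe 7 and 14 bases of probe 5. These genes were picked for their number of members, after the values were seen.

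The members were spread over all 19 chromosomes, from 19 on chromosome 19 to 61 on chromosome 1. Per 100 Mb of known sequence there were between 18.9 on chromosome 14 and 38.7 on chromosome 11. Over the 19 chromosomes this density had a Pearson r of 0.638 and a Spearman rho of 0.611 with that of the lower odd-only peaks, which share the library. With G+C content r was 0.526 and rho 0.407, and with protein-coding genes per Mb 0.400 and 0.354. With the density of sites of at least 13 probe bases it was 0.287 and 0.356. These are descriptions of chromosomes that share one library and differ together in G+C and gene density.

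Neighbouring members were usually far apart. The median distance between their summits was 2163 kb and the mean 3404 kb, a ratio of 0.635, against 0.610 in the lower odd-only peaks. Of 663 gaps, 34 were under 100 kb (5.13%) and 3 under 10 kb. The closest pair lay 1887 bp apart in distal intergenic sequence near *Nudt7*, a gene of a peroxisomal hydrolase, with pileups of 42 and 43. The former held no odd run above 8 bases and the latter 13 bases of probe 1. An even peak was within 10000 bp of 24 members (3.52%), against 4.39% of the lower odd-only peaks (difference -0.874 points, -2.08 to 0.825).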

How the data were processed

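The authors mapped 101-bp reads to mm10 (the same build as GRCm38). The submitters' processing notes name Novoalign 4.02.02 and SAMtools 1.9. MACS2 (2.1.1.20160309) called the peaks per library with no control, from reads extended to 200 bp and kept once per position, at q-values up to 0.05, per the file headers. Duplicate removal left 11.4% of odd and 10.7% of even reads. In the deposited lists pileup is a signal in extended reads, unscaled between libraries and at most 400, fold enrichment is a ratio to the genome-wide background, and the p- and q-values are −log10. Their damaged headings were read by column order, and 1 even start was restored from end and length.

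The probe table was read to find runs and is not printed. Runs were searched on both strands of the RefSeq sequence of GRCm38, and categories followed GENCODE vM21 in the order promoter (3000 bp), 5′ UTR, 3′ UTR, exon, intron, downstream (300 bp), distal intergenic. Intervals are 95% Wilson and Newcombe intervals, without p-values. Python 3.11.15, numpy 2.4.6, pandas 2.3.3, scipy 1.17.1, statsmodels 0.14.6 and matplotlib 3.10.9 were used. On simulated data the search found 99.9% of 1000 planted runs, and it called 0.2% of 1000 regions without one.

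The members and gene lists were chosen with earlier results of these data known. Named members are the 15 highest, the longest matches per probe, the 5 highest with no run of 10 bases, those at list genes, the highest per category and the closest pair. Members with repeated runs or in genes with several members were named after their values were seen. Alternatives were other pileup limits, run lengths, search windows, promoter widths, transcript sets and distances.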

Additional observations from a re-analysis of the deposited data

How the results depend on the processing

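The results were recomputed under other settings. With a pileup of at least 25 there were 1175 members with a median length of 582 bp and a median spacing of 1244 kb. With at least 40 there were 251, with a median length of 758 bp, a spacing of 4668 kb, 41.8% in promoters, 23.5% in introns and a median of 57 bp from summit to run. Odd runs of at least 10 bases were present in 67.4%, even runs of that length in 2.93%, odd runs of at least 14 bases in 20.1%, and the whole peak gave 57.8% with 12 bases. Promoters of 1000 bp held 19.2% and introns then 36.5%. With transcripts of protein-coding genes only, 23.8% lay in promoters and 40.6% were distal intergenic. The gene body itself was touched by 55.9%. Requiring no even peak within 1000 bp, or leaving out members over mostly soft-masked sequence, moved no share, length, spacing or distance beyond its interval, with 680 and 596 members left. No paired analysis was possible because each probe set gave 1 library. Without a control library or replicates, the spread of a pileup between experiments is unknown, and reads kept once per position hold high peaks below 400. Members over the same repeat or duplicated sequence are not independent, so the intervals are too narrow where such members are counted.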
